A study of Mus musculus with 12 samples.

Results

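Slow muscle fibres use their own set of contractile proteins, and the genes of 8 of these, together with the myoglobin gene, were followed on arrays of mouse leg muscle. The 9 genes were Myl2, Myl3, Tnni1, Tnnt1, Tnnc1, Tpm3, Atp2a2, Myh7 and Mb, and every probe set that the platform annotation gave to 1 of these symbols was taken. This gave 13 of the 12422 probe sets that were not controls, at least 1 for each gene. Of the 13, 12 were above the intensity floor on at least 3 arrays and were tested among 10331. The exception was the Tpm3 probe set 93265_at, which was at the floor on 10 of 12 arrays and at most 4.79 on the log2 scale on the others, both of Control_TA.

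A slow fibre contracts slowly, resists fatigue and gets its energy mainly from mitochondria. Its thick filament carries the myosin heavy chain of Myh7 with the light chains of Myl2 and Myl3, and its thin filament carries the troponin subunits of Tnni1, Tnnt1 and Tnnc1 on the tropomyosin of Tpm3. Calcium is returned to the sarcoplasmic reticulum by the pump of Atp2a2, and oxygen is held in the fibre by myoglobin. Most of these genes are also active in the heart, and Mb is used by oxidative fibres of fast type as well as by slow ones.

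The arrays measured total RNA from muscle of mice aged 3 weeks, in 4 groups of 3 arrays. The groups were Dysf_null_TA and Control_TA, from the muscle labelled TA, and Dysf_null_QF and Control_QF, from the muscle labelled QF. Dysf_null mice were of the line C57BL/10-SJL.Dysf, labelled Dysf -/-, which carries the dysferlin allele of the SJL strain in every cell. Controls were C57BL/10 mice, labelled Dysf +/+. No label says that the 3 replicates came from separate mice or whether animals were pooled, so the p-values reflect array-to-array spread that may be partly technical. TA and QF are the usual short names of the tibialis anterior and the quadriceps femoris, which the labels do not spell out.

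The deposited values were intensities with a common trimmed mean on each array, here quantile normalized and given as log2 with a floor at 4.53. Replicate 2 of Dysf_null_QF and replicate 2 of Control_QF were unlike the rest: their median correlations with the remaining arrays were 0.876 and 0.866, and those of the 10 other arrays were 0.926 to 0.959. All 10 skeletal muscle markers of the list were above the floor on at least 3 arrays. Their summed intensity was 92022 to 104072 in Dysf_null_TA and 100399 to 106896 in Control_TA. In QF it was 101466 to 107977 in Dysf_null_QF and 109147 to 115810 in Control_QF. The lower limb gene Hoxa11 averaged 6.33 in Dysf_null_TA and 6.42 in Control_TA, and all 6 QF arrays were at the floor. Of 4 measured genes on a list of such genes, it was the 1 called between the muscles averaged over the genotypes. In that average 2 of the 4 were higher in TA, and Hoxd10 (-0.19) and Hoxa9 (-0.25) were lower without a call. The dysferlin transcript was not analysed here, so it gives no check of the genotype labels.

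The promoters of the 5 genes whose levels differed between the muscles are shown first, so that the genes that were lower in TA can be set beside Mb, which was higher. Each is the window from 250 bases before to 50 after a RefSeq transcription start (GRCm38.p6), 5′ to 3′ on the gene's strand. Capitals mark the MCAT letters CATTCC and the CCAC letters CCCACCC on either strand, which overlap by 1 base in Myl3. Myl2 (chr5:122092474-122092773, plus strand), Myl3 (chr9:110763428-110763727, plus), Tnni1 (chr1:135799171-135799470, plus), Tpm3 (chr3:90072401-90072700, plus) and Mb (chr15:77022738-77023037, minus) follow in that order.
Myl2: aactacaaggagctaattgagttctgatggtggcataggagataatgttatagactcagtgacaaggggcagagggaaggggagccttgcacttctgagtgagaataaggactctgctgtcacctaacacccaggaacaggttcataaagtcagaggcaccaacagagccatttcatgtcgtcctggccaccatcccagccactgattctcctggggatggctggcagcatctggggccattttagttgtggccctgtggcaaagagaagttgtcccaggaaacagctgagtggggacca
Myl3: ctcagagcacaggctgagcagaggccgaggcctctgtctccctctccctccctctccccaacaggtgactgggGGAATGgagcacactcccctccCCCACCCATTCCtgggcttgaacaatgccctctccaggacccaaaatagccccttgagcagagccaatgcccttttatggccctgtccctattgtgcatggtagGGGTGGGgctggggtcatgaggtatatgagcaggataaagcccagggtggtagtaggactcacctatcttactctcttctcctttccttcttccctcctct
Tnni1: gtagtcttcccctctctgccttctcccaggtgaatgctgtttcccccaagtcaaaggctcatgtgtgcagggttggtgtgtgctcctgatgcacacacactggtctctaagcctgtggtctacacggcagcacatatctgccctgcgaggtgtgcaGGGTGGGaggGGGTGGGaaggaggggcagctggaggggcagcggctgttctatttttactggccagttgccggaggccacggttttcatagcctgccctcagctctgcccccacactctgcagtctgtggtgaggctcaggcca
Tpm3: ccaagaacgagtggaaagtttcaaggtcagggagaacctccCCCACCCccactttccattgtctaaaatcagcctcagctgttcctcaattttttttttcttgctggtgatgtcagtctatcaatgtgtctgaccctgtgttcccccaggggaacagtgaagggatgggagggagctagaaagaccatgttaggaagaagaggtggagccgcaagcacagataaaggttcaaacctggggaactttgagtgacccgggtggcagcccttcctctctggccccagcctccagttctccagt
Mb: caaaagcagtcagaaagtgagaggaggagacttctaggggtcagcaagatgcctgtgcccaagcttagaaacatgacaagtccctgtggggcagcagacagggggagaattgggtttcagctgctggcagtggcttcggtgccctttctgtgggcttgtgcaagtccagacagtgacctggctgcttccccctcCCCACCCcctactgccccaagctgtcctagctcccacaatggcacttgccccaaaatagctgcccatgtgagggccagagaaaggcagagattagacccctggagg

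RefSeq windows were found for 8 of the 9 genes, 14 windows in all, since Myl2, Tnni1, Tpm3, Myh7 and Mb have more than 1 start. For these genes the table's first start is shown, except for Mb, where the second is shown because the first holds none of the capitals. The CCAC letters, a sequence known from work on the myoglobin promoter and added to the search after the windows had been read, stood in 9 of the 14 windows and in 6 of the 8 genes. They stood in 17.5% of all 32851 windows of the table. Windows of the same gene overlap in Tnni1, in Myh7 and in the later starts of Mb, so the same sites are counted in more than 1 window. Since the letters were also chosen after these windows had been read, the shares cannot show an excess in the members. MCAT letters, bound by TEAD factors, stood in 3 of the 14 (Myl3, Tnnc1 and Myh7), against 14.7% of all windows. The GATA letters AGATAA stood in 2 (11.2% of all), the E-box letters CANNTG in all 14 (72.3%) and the MEF2 letters, CTA and TAG with any 4 bases between, in 0 (3.7%). The CCAC letters were in genes of both directions, Mb on the one side and Myl3, Tnni1 and Tpm3 on the other, and not in either window of Myl2.

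Between the muscles, slow contractile genes were lower in TA than in QF, and myoglobin was higher. Averaged over the genotypes, Myl2, Myl3, Tnni1 and Tpm3 fell to levels 1.48 to 1.52-fold below those of QF, and Mb rose 1.82-fold. Of the 12 probe sets tested, 4 were called lower and 1 higher (limma with Benjamini-Hochberg adjustment over 10331 probe sets, adjusted p under 0.05). Over all probe sets 0.532% were called lower and 0.581% higher, 1.11% in all. Arrays of the same replicate number deviated together between the genotypes within a muscle, but this fit took all arrays as independent. The standard errors of these averages may therefore be too small. A fit with replicate number as a block within each genotype paired TA with QF arrays instead. There same-number arrays had r of -0.141 to 0.123, so that fit cannot address the correlation between the genotypes. In it 2 of the 5 member calls held (Mb and Myl2). The median difference of the 12 was -0.57, against 0.01 over all probe sets, and 10 of the 12 were negative, while 51.3% of all probe sets were positive. Whole muscle was measured, so fewer slow fibres and less of these transcripts per fibre cannot be told apart. All differences below are on the log2 scale with the standard error (SE) of the fit.

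Myl2 encodes the regulatory light chain of slow and ventricular myosin. It had log2 levels of 10.36, 10.43 and 10.68 in Dysf_null_TA, 10.07, 10.21 and 10.19 in Control_TA, 11.17, 11.21 and 11.27 in Dysf_null_QF and 10.76, 10.52 and 10.62 in Control_QF. Within each genotype the TA arrays lay below all QF arrays, and the highest Dysf_null_TA array lay among the Control_QF arrays. The difference between TA and QF was -0.60 ± 0.08 averaged over the genotypes (adjusted p = 0.00224).

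Myl3 encodes the essential light chain that sits beside it on the myosin neck. Its levels were 9.66, 9.60 and 9.66 in Dysf_null_TA and 9.57, 9.70 and 9.72 in Control_TA, against 10.37, 10.40 and 10.12 in Dysf_null_QF and 10.18, 10.37 and 9.89 in Control_QF. The 6 TA arrays lay below the 6 QF arrays with no overlap, and the TA arrays were closer together. The difference was -0.57 ± 0.10 (adjusted p = 0.0135).

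Tnni1 encodes the slow isoform of troponin I, the inhibitory subunit. It measured 9.51, 9.34 and 9.53 in Dysf_null_TA and 9.34, 9.39 and 9.64 in Control_TA, against 10.33, 10.33 and 9.95 in Dysf_null_QF and 10.18, 9.83 and 9.76 in Control_QF. Again no TA array reached a QF array, with Control_TA 3 the nearest to them. The difference was -0.61 ± 0.11 (adjusted p = 0.0173). This call was lost without Control_TA 2, Dysf_null_QF 1 or Dysf_null_TA 2 (adjusted p = 0.0620, 0.0551 and 0.0609), and without both QF arrays numbered 2 (0.0531).

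Tpm3 encodes the slow form of alpha-tropomyosin and, from other starts, tropomyosins of many non-muscle cells. On probe set 93266_at it gave 9.61, 9.62 and 9.75 in Dysf_null_TA and 9.69, 9.68 and 9.82 in Control_TA, against 10.25, 10.30 and 10.13 in Dysf_null_QF and 10.34, 10.38 and 10.17 in Control_QF. The muscles were clearly apart and the genotypes overlapped in both. The difference was -0.57 ± 0.08 (adjusted p = 0.00304). The calls of Myl2, Myl3 and Tpm3 held in all 12 fits with 1 array left out, but each in 6 of the 8 other settings. Without the intensity trend the adjusted p was 0.0508 for Myl2, 0.0926 for Myl3 and 0.0528 for Tpm3.

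Mb, on probe set 100614_at, ran the other way. It gave 12.08, 12.46 and 12.40 in Dysf_null_TA and 12.25, 12.37 and 12.50 in Control_TA, against 11.66, 11.31 and 11.73 in Dysf_null_QF and 11.34, 11.37 and 11.43 in Control_QF. All 6 TA arrays lay above all 6 QF arrays. The difference was 0.87 ± 0.10 (adjusted p = 0.000355), and it held in the 12 fits with 1 array left out and in the 8 other settings run for it. In the deposited intensities, before normalization, Mb lay at 4517 to 5515 in Dysf_null_TA and 5198 to 6140 in Control_TA, against 2031 to 3310 in Dysf_null_QF and 2154 to 2882 in Control_QF. Of the 12 probe sets, 3 were lower and 1 was higher in TA with no overlap of 6 against 6 arrays, against 0.716% and 0.794% of all probe sets.

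**Figure D1:**
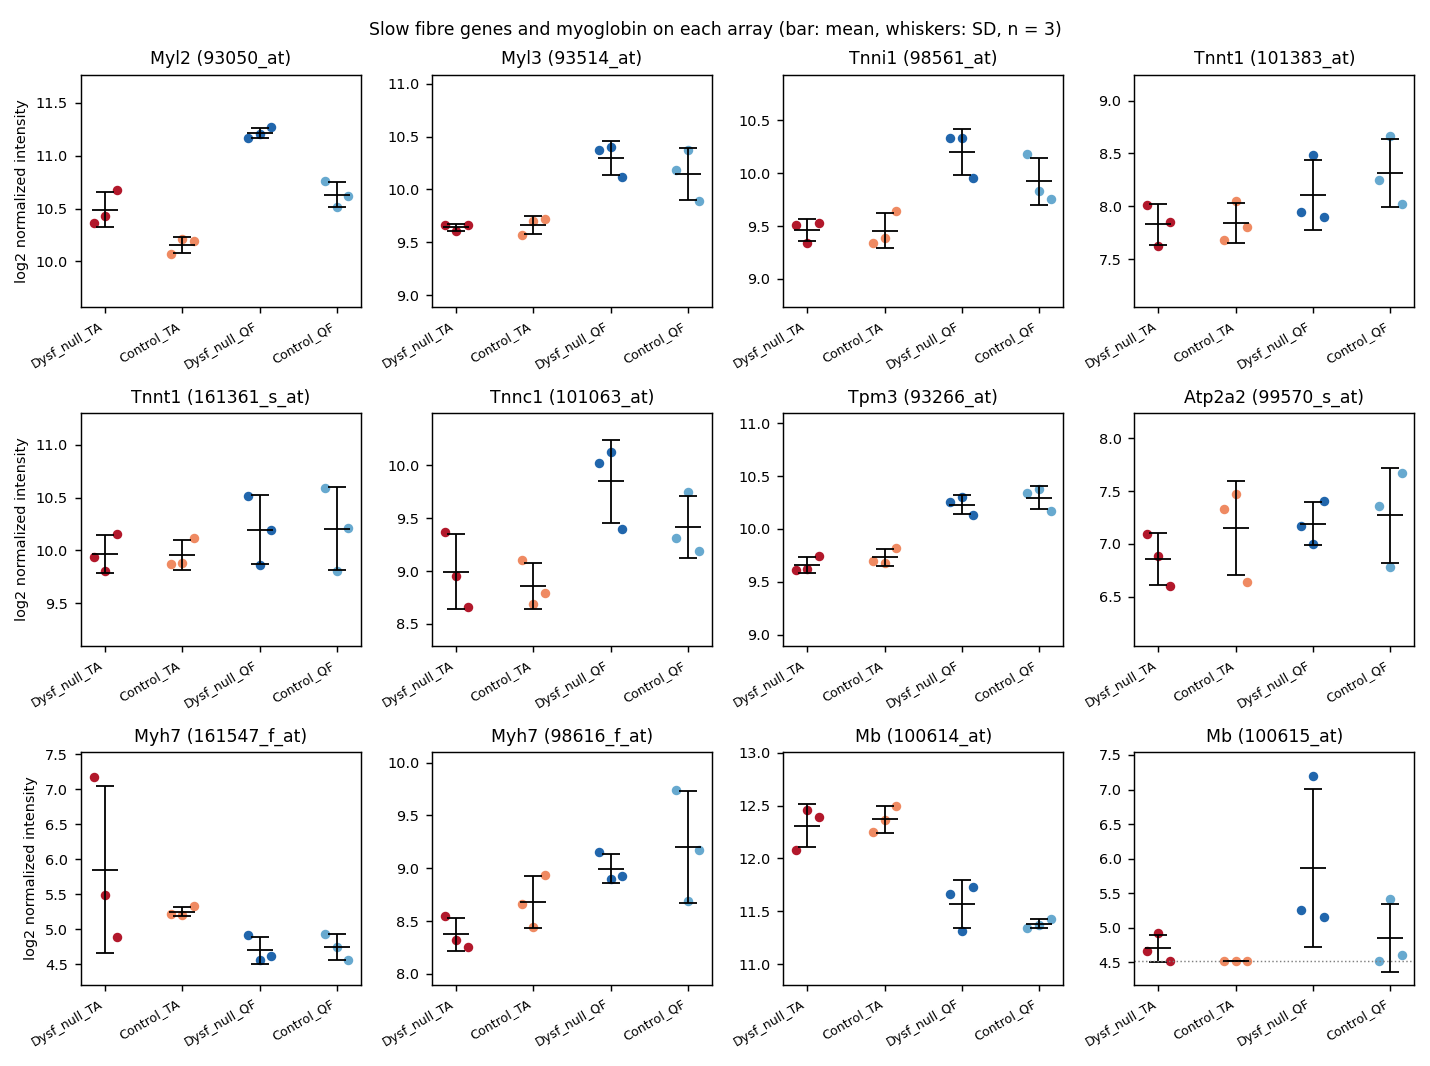
The log2 normalized intensity of each of the 12 tested probe sets is plotted on every array, with the group mean as a bar and the SD (n = 3) as whiskers, and a dotted line marks the floor where arrays reached it. Myl2, Myl3, Tnni1 and Tpm3 (93266_at) sit lower in the TA groups on the left than in the QF groups on the right, Mb (100614_at) sits higher, and the vertical range differs between panels.

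Tnnc1, troponin C of slow and cardiac muscle, had the most negative difference of the troponins but did not pass, at -0.71 ± 0.17 (adjusted p = 0.0666). Its levels were 9.37, 8.96 and 8.66 in Dysf_null_TA and 9.11, 8.69 and 8.79 in Control_TA, against 10.03, 10.13 and 9.40 in Dysf_null_QF and 9.32, 9.75 and 9.19 in Control_QF. The array Dysf_null_TA 1 overlapped the QF arrays, and Dysf_null_QF 3 was low within its group. Without Dysf_null_QF 3 the adjusted p was 0.0251, and without Dysf_null_TA 1 it was 0.0495, and with array weights it was 0.0287.

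The heavy chain gene Myh7 was read by probe sets that disagreed. The brighter, 98616_f_at, gave 8.54, 8.32 and 8.25 in Dysf_null_TA and 8.66, 8.45 and 8.93 in Control_TA, against 9.16, 8.90 and 8.93 in Dysf_null_QF and 9.74, 8.69 and 9.17 in Control_QF. Its difference was -0.57 ± 0.17 (adjusted p = 0.155), and 0.0390 was the adjusted p without Control_QF 2, the lowest QF array, and 0.0244 with array weights. The dim one, 161547_f_at, lay between 4.56 and 7.18 over all arrays and had a difference of 0.83 ± 0.32 (adjusted p = 0.291); Dysf_null_TA 1 was the highest at 7.18, and the next was 5.49. The suffix of both marks probes that can match other members of a gene family, so myosin heavy chains of other genes may contribute.

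Tnnt1, slow troponin T, did not pass on either probe set. The difference was -0.38 ± 0.16 on 101383_at (adjusted p = 0.353) and -0.24 ± 0.14 on 161361_s_at (adjusted p = 0.495), and the TA and QF arrays overlapped on both. Atp2a2, the calcium pump of slow and cardiac muscle, lay between 6.60 and 7.67 on the 12 arrays and gave -0.23 ± 0.22 (adjusted p = 0.659), with a 95% interval of -0.70 to 0.25. The second Mb probe set, 100615_at, was dim. It lay at 4.92 or below in TA, with 4 of 6 TA arrays at the floor, and reached 7.19 on Dysf_null_QF 2, 1 of the arrays that stood apart. Its difference was -0.74 ± 0.32 (adjusted p = 0.351), opposite in sign to the bright one, and -0.28 without both QF arrays numbered 2.

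Within each genotype 1 slow gene and Mb were called, and the slow gene was not the same in both. In Dysf_null mice 2 of the 12 were called between TA and QF, against 0.3% of all probe sets. These were Myl2 (-0.72 ± 0.12, adjusted p = 0.0161) and Mb (0.74 ± 0.14, adjusted p = 0.0421), and Tnni1 gave -0.74 ± 0.16 (adjusted p = 0.101) and Myl3 -0.66 ± 0.14 (adjusted p = 0.107). In Control mice 2 of 12 were also called, against 0.736%. They were Mb (0.99 ± 0.14, adjusted p = 0.00329) and Tpm3 (-0.56 ± 0.11, adjusted p = 0.0430), which gave -0.57 in Dysf_null mice (adjusted p = 0.0737). Myl2 gave -0.48 in Control mice (adjusted p = 0.112), Myl3 -0.48 (0.206) and Tnni1 -0.47 (0.316). The groups did not overlap for 7 probe sets lower and 1 higher in Dysf_null mice, against 4.51% and 5.71% of all, and for 5 lower and 2 higher in Control mice, against 5.6% and 8.16%. The 7 include the dim Mb probe set 100615_at, and the 2 include the dim Myh7 probe set 161547_f_at. Each ran opposite to the bright probe set of its gene, so these counts are not all slow genes lower and Mb higher.

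Of these within-genotype calls, that of Mb in Control mice held in all 12 fits with 1 array left out. That of Tpm3 in Control mice held only without Control_QF 3, Dysf_null_QF 2 or Dysf_null_QF 3, with adjusted p up to 0.244 in the other fits. That of Mb in Dysf_null mice held only without Dysf_null_TA 1, with adjusted p up to 0.271 in the others. That of Myl2 in Dysf_null mice was lost without Dysf_null_QF 1, 2 or 3 (0.0620, 0.0696 and 0.0751) and without Dysf_null_TA 1 or 2 (0.101 and 0.0977). Without both QF arrays numbered 2 the adjusted p in Dysf_null mice was 0.0552 for Myl2 and 0.244 for Mb, and in Control mice 0.131 for Tpm3.

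**Figure D2:**
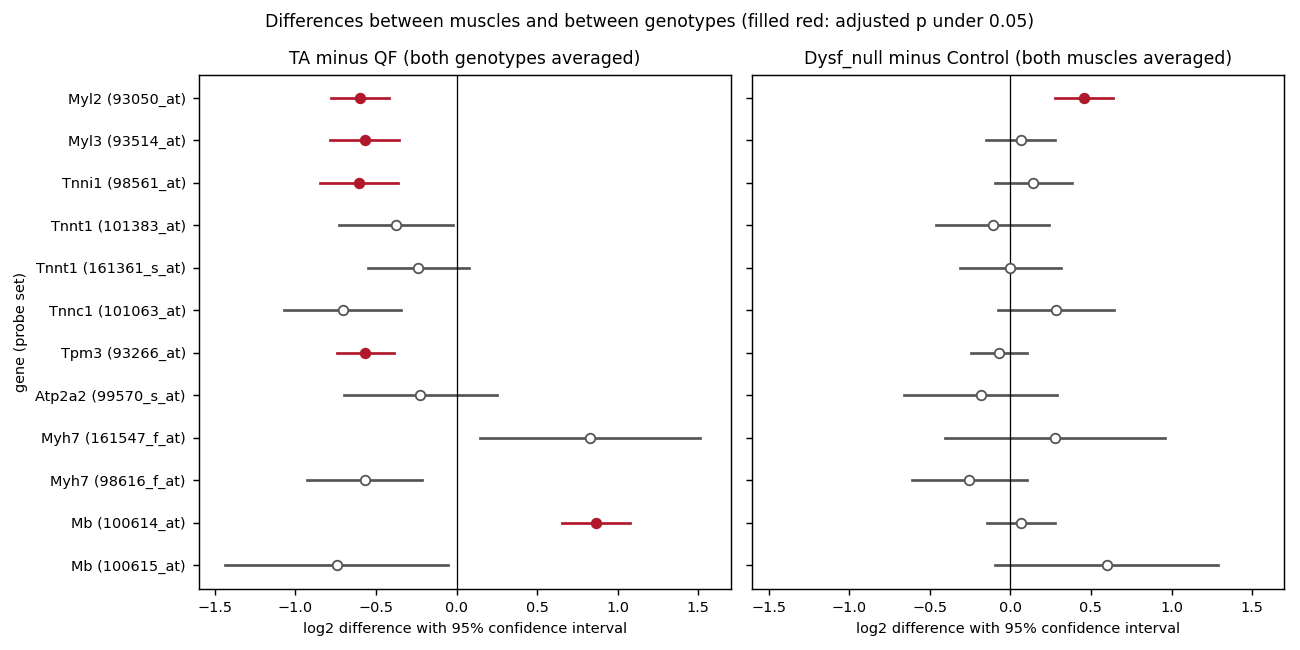
The left panel gives the log2 difference TA minus QF and the right panel Dysf_null minus Control for each tested probe set, with 95% confidence intervals, filled red where the adjusted p was under 0.05. Between muscles 4 slow genes lie to the left of 0 and Mb (100614_at) to the right, and between genotypes Myl2 at 0.46 is the 1 call.

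Between the genotypes Myl2 was the 1 member called. Averaged over the muscles it was 0.46 ± 0.08 higher in Dysf_null mice, or 1.37-fold (adjusted p = 0.0174). That was 1 of 12 probe sets called, and higher, against 1.09% of all called and 0.784% called higher. The 3 Dysf_null_QF arrays (11.17 to 11.27) lay above the 3 Control_QF arrays (10.52 to 10.76), and the 3 Dysf_null_TA arrays (10.36 to 10.68) above the 3 Control_TA arrays (10.07 to 10.21). The call was lost without Control_TA 1 (adjusted p = 0.0549) or Dysf_null_TA 3 (0.0570), without both QF arrays numbered 2 (0.0593), and on the deposited scaling, where the difference was 0.40 (adjusted p = 0.266).

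In each muscle alone no member passed, 0 of 12 in TA (0.407% of all probe sets called) and 0 of 12 in QF (0.455%), with 1 and 2 at an unadjusted p under 0.05. Myl2 gave 0.33 ± 0.12 in TA (adjusted p = 0.655) and 0.58 ± 0.12 in QF (adjusted p = 0.0575, and 0.00902 once replicate number was a block). That block also raised the calls over all probe sets, to 159 in TA, 273 in QF and 474 for the average, against 42, 47 and 113 without it. Myl2 was also the 1 member whose Dysf_null arrays lay wholly above the Control arrays, in both muscles, against 6.92% of all probe sets in TA and 4.08% in QF. In TA, 1 of 12 is near that share, and the share apart in both muscles at once is not given here. This rests on the same values as the limma fit and adds no separate support. The order of its levels was Dysf_null_QF, Control_QF, Dysf_null_TA and Control_TA, and the neighbours Control_QF and Dysf_null_TA overlapped.

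Markers of other cells moved between the genotypes as well. Averaged over the muscles, 4 of 5 red cell genes were higher in Dysf_null mice (median 0.71), 3 of 8 fibroblast and matrix genes were (median 0.76, 8 of 8 positive), and 1 of 7 macrophage genes was, Lyz2 at 0.70 (adjusted p = 0.0219). Of the 7 macrophage genes 6 were positive, and Cd68 ran the other way at -0.56 ± 0.13 (adjusted p = 0.0812). In TA alone Cd68 was called lower in Dysf_null mice (-1.27 ± 0.19, adjusted p = 0.0104). The summed intensity of the red cell list was 22836 to 26223 in Dysf_null_TA and 11809 to 15759 in Control_TA, and 21243 to 27525 in Dysf_null_QF and 15901 to 16200 in Control_QF. That of the fibroblast and matrix list was 28827 to 43023 in Dysf_null_TA and 20944 to 28775 in Control_TA, and 27101 to 40319 in Dysf_null_QF and 16504 to 24578 in Control_QF. That of the macrophage list was 2894 to 3364 in Dysf_null_TA and 2508 to 3236 in Control_TA, and 3138 to 3828 in Dysf_null_QF and 2515 to 3128 in Control_QF. No gene of these 3 lists was at the floor on all arrays, and their part in the Myl2 difference was not tested.

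The other members were not called between the genotypes. In the fit without the block their intervals included 0, except that of the dim Mb probe set in QF (0.04 to 2.00). With the block the SE values were smaller, as for Tnnc1 (0.44 ± 0.12) and Tnni1 (0.28 ± 0.10) in QF, and again these were not called. Averaged over the muscles, Tnni1 gave 0.14 with an interval of -0.10 to 0.38, Myl3 0.06 (-0.15 to 0.28), Tpm3 -0.07 (-0.25 to 0.11) and Mb 0.06 (-0.15 to 0.27). Tnnc1 gave 0.28 (-0.08 to 0.64), and Myh7 on its bright probe set -0.26 (-0.61 to 0.10). Within replicate numbers, Tpm3 was lower in Dysf_null mice in 6 of 6 pairs, by 0.04 to 0.09 (adjusted p = 0.556 with the block), and in QF Tnnc1, Tnni1 and Myl3 were higher in 3 of 3 pairs each (0.124, 0.214 and 0.419 with the block). The median over the 12 was 0.06, against -0.01 over all probe sets, and 7 of 12 were positive. The dim Mb probe set gave 1.02 ± 0.45 in QF (adjusted p = 0.713), with Dysf_null_QF 2 highest at 7.19.

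The interaction, which sets the genotype difference of TA against that of QF (TA minus QF), was called for 0 of the 12 by limma (0.0678% of all), and 0 were at an unadjusted p under 0.05. For Myl2 it was -0.25 with an interval of -0.61 to 0.11, and for Mb -0.25 (-0.66 to 0.17). Tpm3, called between muscles in Control and not in Dysf_null mice, had an interaction of -0.01 (-0.36 to 0.35). The muscle differences of the members were therefore not shown to differ between the genotypes. The 2 genotype comparisons shared no arrays, but the muscle comparisons used the same arrays as the genotype ones.

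The fast partners of these genes were not called between the muscles, but their differences depended on the scaling. Each slow gene was set beside the gene of the same protein in fast fibres, and 0 of the 8 fast partners passed by limma, against 4 of the 8 slow genes. Averaged over the genotypes the slow gene had the lower difference, TA minus QF, in 8 of 8 pairs, as in Dysf_null mice, and in 7 of 8 in Control mice, where Mylpf, the fast regulatory light chain, gave -0.58 and Myl2 -0.48. Tnni1 gave -0.61 and its partner Tnni2 -0.24 ± 0.14, and Tpm3 gave -0.57 and Tpm1 -0.14 ± 0.25. Mylpf gave -0.56 ± 0.17 (adjusted p = 0.182), close to Myl2 at -0.60.

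Quantile normalization sets the value of a probe set by its rank, and some fast partners were among the brightest. Myl1, the fast essential light chain, was the brightest probe set on 11 of 12 arrays, so its normalized difference of 0.03 was set by the scaling and is not a contrast with Myl3. Tnnt3, Atp2a1 and Myh4 ranked 2 to 15. On the deposited scaling Myl1 gave -0.37, against -0.45 for Myl3, Myh4 gave -0.33, Atp2a1 -0.23 and Tnnt3 -0.39, below Tnnt1 at -0.14, and the slow gene was lower in 7 of 8 pairs. Among those 7 pairs the gap was widest for Tnni1 (-0.49) and Tnni2 (-0.13), and narrowest for Myl2 (-0.50) and Mylpf (-0.45). These deposited-scale differences of the fast partners carry no test here. Of 14 fast contractile genes measured, 0 were called in any of the 7 comparisons, and their median between muscles was -0.09 on the quantile normalized scale.

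**Figure D3:**
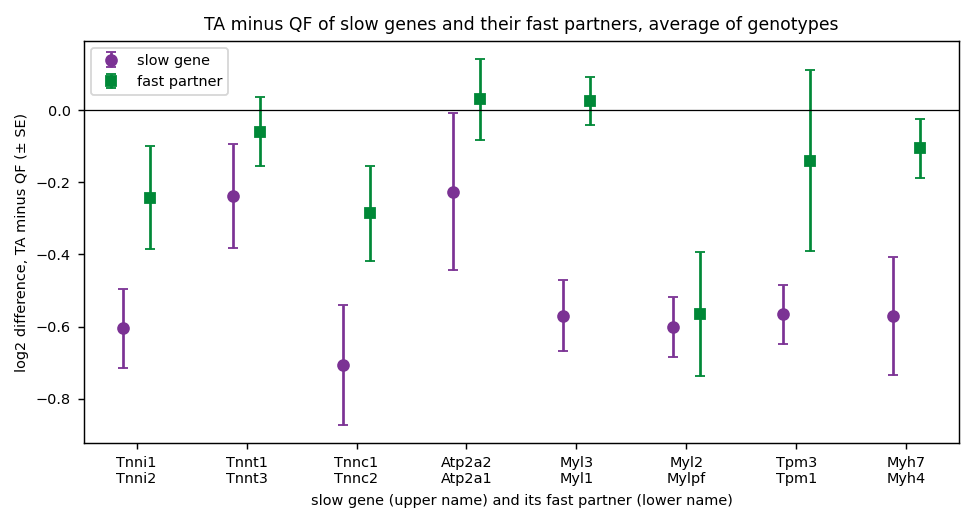
For each of 8 pairs the log2 difference TA minus QF, averaged over the genotypes, is given for the slow gene (circle) and its fast partner (square), with SE bars. The circles lie at or below -0.23 and the squares between -0.56 and 0.03, with Mylpf the lowest square. The values are quantile normalized; on the deposited scaling Myl1 is at -0.37 and Tnnt3, at -0.39, lies below Tnnt1.

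A list of other slow fibre and Z-disc genes held some that ran opposite to the contractile genes. Of 12 measured, 5 were called higher in TA than in QF averaged over the genotypes and 0 lower, with a median of 0.50. Over all probe sets 0.581% were called higher and 0.532% lower. The other 7 of the list did not pass, among them Tcap (-0.63 ± 0.22), Myl6b (-0.26 ± 0.38) and Hrc (-0.19 ± 0.12). The 5 were Csrp3, the muscle LIM protein (2.73 ± 0.17), the titin-linked Ankrd2 (1.62 ± 0.11) and Ankrd1 (1.54 ± 0.24), Fhl1 (1.29 ± 0.08) and Cryab, a small heat shock protein (0.73 ± 0.10). These averages covered unlike genotypes. In Dysf_null mice 1 of the 12 was called, Fhl1 at 0.86, against 0.3% of all probe sets. There Csrp3 gave 1.11 (adjusted p = 0.123), Ankrd2 0.59 (0.361), Ankrd1 0.90 (0.775) and Cryab 0.09 (0.932). In Control mice all 5 were called, against 0.736% of all probe sets. Csrp3 was at 4.35, Ankrd2 at 2.65, Ankrd1 at 2.18, Fhl1 at 1.73 and Cryab at 1.37. The interaction was called for Csrp3, Ankrd2 and Cryab, and for 0 of the member probe sets, against 0.0678% of all.

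Few of the oxidative genes that work beside myoglobin were called between the muscles. Of 18 measured, covering cytochrome oxidase subunits, fatty acid handling and hypoxia factors, 1 was called higher in TA and 0 lower. Their median was 0.07, and 11 of the 18 were positive. The called gene was Ckmt2, the creatine kinase of muscle mitochondria, at 0.36 ± 0.07 (adjusted p = 0.0356). Citrate synthase, Cs, gave 0.32, and Ldhb, the lactate dehydrogenase of oxidative fibres, -0.43, and neither passed. Of 23 regulators of fibre type, such as calcineurin, NFAT and MEF2 genes, 0 passed in any of the 7 comparisons by limma. Among them Nfatc1 gave 0.95 ± 0.37 (adjusted p = 0.304) and Esrrb -0.74 ± 0.26 (adjusted p = 0.246) between the muscles. Of 11 developmental muscle genes 0 passed, with a median of -0.25.

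Markers of other cells were set beside these differences. Of 10 measured cardiac markers 0 passed between the muscles, with a median of 0.05. The cardiac myosin gene Myh6 averaged 4.53 in Dysf_null_TA, 4.74 in Control_TA, 4.82 in Dysf_null_QF and 5.02 in Control_QF, near the floor, and Ryr2 was at the floor on all arrays. Of 6 smooth muscle markers, Acta2 was lower in TA (-0.99 ± 0.14, adjusted p = 0.00224) and 5 did not pass. The summed intensity of that list was 1719 to 2043 in Dysf_null_TA and 1532 to 2025 in Control_TA, against 2404 to 3743 in Dysf_null_QF and 1872 to 3353 in Control_QF. The part of smooth muscle cells in the differences of the members was not tested.

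Some fat cell genes shared the muscle difference of the slow genes. A mean profile was made from the standardised values of all 9 genes, Mb included, although Mb ran opposite to the other 8. Likeness to this mean is therefore not likeness to every member. Probe sets were ranked by Pearson's r with it over the 12 arrays. The top 10 were those of Il18, Ucp1, Cidea, Apoc1, Cidec, Pck1, Pparg, Adipoq, Gstp1 and Cyp2e1. Their r lay between 0.863 and 0.933, with Spearman's rho between 0.608 and 0.892. These values rank 9140 probe sets, describe arrays that share a split between 2 muscles, and carry no p. A fat cell list was added after this was seen. It holds Ucp1, Cidea, Cidec, Pparg and Adipoq from these 10, so their calls between the muscles are no separate support. Of its other measured genes Retn was called (-0.92 ± 0.16, adjusted p = 0.0146), and Lep, Fabp4 and Dio2 were not. Of its 12 genes 10 were on the array, 9 were measured, 6 were lower in TA and 0 were higher, with a median of -1.11. Cidea and Ucp1, genes of brown fat, gave -3.42 ± 0.19 and -2.22 ± 0.19, and Adipoq, the adiponectin gene, -1.29 ± 0.08. The summed intensity of the 10 was 1635 to 2083 in Dysf_null_TA and 1618 to 1843 in Control_TA, against 4201 to 4651 in Dysf_null_QF and 3866 to 4235 in Control_QF, and Elovl3 was at the floor on all arrays. Their part in the result for the slow genes was not tested. Between the genotypes, averaged over the muscles, 0 of the 9 were called by limma, with Ucp1 at 0.82 ± 0.19 (adjusted p = 0.0639).

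**Figure D4:**
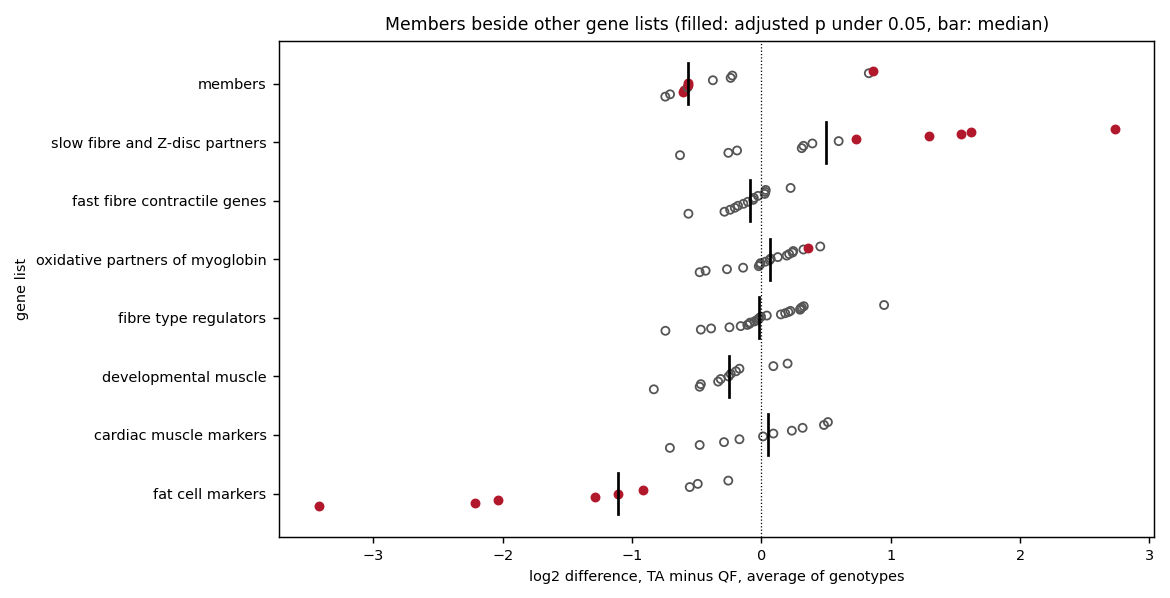
Each point is 1 probe set's log2 difference TA minus QF averaged over the genotypes, by gene list, filled where the adjusted p was under 0.05, with the median as a bar. The members have a median of -0.57, the Z-disc list 0.50, the fast contractile list -0.09 and the fat cell list, which was chosen after its values were seen, -1.11.

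The members varied together only in part. Over the 12 arrays, Myl2, Myl3, Tnni1, Tnnc1 and Tpm3 had pairwise Pearson's r of 0.674 to 0.937 (10 pairs), and Mb had r of -0.922 to -0.344 with the other 8 genes. After each group's mean was taken off, the 10 pairs spread from -0.778 to 0.817 and those of Mb from -0.697 to 0.375. These values describe arrays that share the muscle split and carry no test. Probe sets of 1 gene also failed to follow each other. The pairs of Mb, Myh7, Tnnt1 and Tpm3 had r of -0.53, -0.34, -0.06 and -0.17, and the dimmer partner was near or at the floor for all of these except Tnnt1, where the levels averaged 8.02 and 10.08.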

How the data were processed

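Total RNA of 12 samples had been hybridised to single-channel arrays, and the labels gave the groups and replicate numbers. Each deposited value was a linear intensity of a probe set, scaled by the authors to a common trimmed mean (200.1 to 200.2 without the lowest and highest 2%), judging by the values. For software and background correction, no source used here gives a name. Precision is limited by the number of arrays.

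After 66 control probe sets were left out, 12422 were quantile normalized, since deposited medians differed 1.47-fold between arrays. Values were floored at the 25th percentile (23.0, log2 4.53) and log2 was taken, and the 10331 that exceeded the floor on 3 or more arrays were tested. Names came from the platform annotation, in which 10833 probe sets had 1 symbol, 396 several and 1193 none. Group means were fitted to all 12 arrays with limma 3.58.1 (R 4.3.3), with 8 residual degrees of freedom, an intensity trend and two-sided tests in 7 comparisons. Benjamini-Hochberg adjustment ran over the 10331, with calls made at an adjusted p under 0.05. The fit was tested on simulated data. Figures used Python 3.11.15 and matplotlib 3.10.9. Promoter sequences are from RefSeq.

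The members and gene lists were chosen with earlier results of these data known. All probe sets of the members were named, with called members of the lists, partner pairs and the 10 probe sets of most similar profile. Lists took each gene's brightest probe set.

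Arrays with the same replicate number deviated together between genotypes within a muscle (r of 0.390 to 0.711 in QF and 0.114 to 0.231 in TA), so the numbers pair the genotypes there, and a fit with that block was run. Between muscles r lay from -0.141 to 0.123, and the numbers pair nothing. Alternatives covered normalization, floor, filter, trend, array weights, the arrays fitted, the block, each array left out and both QF arrays numbered 2 left out.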

Additional observations from a re-analysis of the deposited data

Results flagged for a closer look

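Of the 5 slow fibre and Z-disc list genes called between the muscles, 3 had a genotype difference that differed between TA and QF by the interaction test of limma. The genotype difference of TA less that of QF was -3.23 ± 0.34 for Csrp3 (adjusted p = 0.00142), -2.05 ± 0.23 for Ankrd2 (0.00156) and -1.27 ± 0.20 for Cryab (0.0339). These genes are no members of the slow contractile set, in which 0 of 12 probe sets had such a difference.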

How the results depend on the processing

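Every called difference of a member kept its sign in all settings run, and the causes of changed calls were not tested. For TA minus QF averaged over the genotypes, the 5 calls among members were 3 without quantile normalization (1 higher and 2 lower), 1 without the intensity trend (Mb), 7 with array weights (Tnnc1 and Myh7 added) and 2 with the replicate block within each genotype (Mb and Myl2), and 4 to 6 with 1 array left out. Without quantile normalization the median of all probe sets moved by -0.10 in Control mice and by -0.08 for the average, with members at -0.50 (Myl2, adjusted p = 0.102), -0.49 (Tnni1, 0.0807) and 0.98 (Mb). In Control mice the 2 calls were 1 at the floor of the 10th percentile, without quantile normalization, with only the arrays compared, with the replicate block and without both QF arrays numbered 2, 0 without the trend, and 1 to 2 with 1 array left out. In Dysf_null mice the 2 calls were 5 with array weights, 1 at the lower floor, 0 without the trend, without quantile normalization, with only the arrays compared, with the replicate block and without both QF arrays numbered 2, and 0 to 1 with 1 array left out. For the genotype average the 1 call (Myl2) was 0 without the trend, without quantile normalization and without both QF arrays numbered 2, and 0 to 1 with 1 array left out. In QF the 0 calls were 1 (Myl2) without the filter and with the replicate block, and TA and the interaction stayed at 0 in all settings. The replicate block changed no other call between genotypes. Over all probe sets the 115 calls for TA minus QF were 51 with the block, 60 without the trend, 178 with array weights and 56 to 156 with 1 array left out. The other counts ranged over all settings as follows: 76 from 21 to 145 (Control), 31 from 9 to 52 (Dysf_null), 113 from 56 to 474 (genotype average), 47 from 0 to 273 (QF), 42 from 14 to 192 (TA) and 7 from 4 to 32 (interaction). Dim probe sets near the floor, such as the second of Mb and of Myh7, limit what their differences can show.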
